A study of Mus musculus with 2 samples.

Results

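The cells described here are 120 cells of brain tumour samples, 60 from each of 2 libraries. They combined a high level of the oncogene Nras with Pdgfrb and with genes of the extracellular matrix. They were chosen from 4970 barcodes, of which 3186 had at least 200 genes and at most 15% mitochondrial UMIs (unique molecular identifiers, the counted RNA molecules). Cells with at least 5000 UMIs, at least 1000 CPM of Nras (UMIs of the gene scaled to an equal UMI total per cell or sum) and at most 1 UMI of the immune genes Tyrobp and Fcer1g numbered 1912. Of these, 654 held a Pdgfrb UMI (340 and 314 in replicates 1 and 2). Within each library those were ranked by the summed log2(CPM + 1) of Mgp, Col3a1, Islr, Bgn and Col6a1, and the first 60 were taken. The other 534 Pdgfrb-positive cells and the 1258 cells of the same gate with no Pdgfrb UMI served as comparisons.

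The study profiled brain tumours of C57BL/6 mice whose tumour cells carried mutant IDH1 (mIDH1) and which had reached symptoms, by 10x Genomics droplet sequencing. Both libraries belong to that 1 group, and neither an untreated nor a wild-type IDH1 sample was analysed here. The labels do not say whether the libraries came from separate animals, so the spread between them may be technical. Although the labels call the material tumour cells, 794 barcodes carried at least 10 UMIs of Tyrobp and Fcer1g with Nras below 1000 CPM, and these immune barcodes were used as a host reference.

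Pdgfrb encodes the receptor tyrosine kinase for PDGF-BB. In the brain it marks mural cells, that is pericytes and vascular smooth muscle cells on vessel walls, and perivascular and meningeal fibroblasts. Pericytes are known for Rgs5, Abcc9, Higd1b and Vtn, contractile smooth muscle for Acta2, Myh11 and Cnn1, and fibroblasts for Col1a1, Col1a2, Dcn and Lum. Glioma cells can also express mesenchymal and matrix genes, so Pdgfrb alone does not separate host stroma from tumour.

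By construction the ranked cells held the genes of the ranking, so the following values are descriptions without a test. Summed over the 60 cells, Mgp, a matrix protein that inhibits calcification, was at 61.4 CPM in replicate 1 and 126 CPM in replicate 2, against 0.267 and 1.11 CPM in Pdgfrb-negative cells. Col6a1, the alpha-1 chain of the collagen VI microfibril, was at 108 and 97 CPM against 2.73 and 2.54 CPM. The proteoglycan gene Bgn was at 141 and 65.2 CPM against 11.9 and 9.42 CPM. Both libraries thus showed all 3 genes at higher levels, but few cells held them together: Mgp had a UMI in only 36.7% of the ranked cells, Bgn in 44.2%, Col3a1 in 47.5%, Islr in 73.3% and Col6a1 in 82.5%. All 5 genes were found in 6 cells of replicate 1 and 3 of replicate 2, and the most frequent number was 2 genes (24 and 32 cells). In immune barcodes Mgp and Bgn had no UMI in either library, and Col3a1 was at 0.288 and 1.37 CPM.

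Where the ranking ended was not a gap. The score fell from 41.5 and 41.7 for the first cell of each library to 11.8 and 10.1 for the last cell taken, and the next cell scored 11.5 and 10.0. A score of 0 was shared by 182 and 167 Pdgfrb-positive cells. The lowest Nras level among the ranked cells was 1001 and 1023 CPM, and the highest among Pdgfrb-positive cells just below the limit was 989 and 986 CPM. Pdgfrb itself had a median of 4 UMIs per ranked cell in both libraries, with 13 cells of each library resting on a single UMI.

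Depth differed between the classes. The ranked cells had a median of 30452 and 38241 UMIs, Pdgfrb-negative cells 41642 and 46421, other Pdgfrb-positive cells 46621 and 54552, and immune barcodes 6808 and 8781.5. Their median mitochondrial share was 4.17% and 4.75% against 3.22% and 3.34% in Pdgfrb-negative cells. The doublet caller marked 11 and 3 barcodes of the libraries, none of them a ranked cell. Of 10 barcode sequences found in both libraries, none belonged to a ranked cell.

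The markers of mural cells and fibroblasts gave a divided picture, in which several defining genes had no UMI while others, Acta2 among them, were higher than in Pdgfrb-negative cells. The working name of these cells as mural-like or fibroblast-like therefore rests on part of the markers only. Rgs5, Abcc9, Higd1b, Vtn and Des, 5 of 14 pericyte markers, had 0 UMIs in the 120 cells, as had Myh11, Cnn1, Lmod1, Actg2 and Synpo2 among 12 smooth muscle genes. A count of 0 allows up to 1.14 and 1.12 CPM in the sums of the 2 libraries, or a share of up to 2.5% of the cells with a UMI (3 counts, counting error only); it sets no limit on the share of cells that express the gene. Of 18 fibroblast markers 9 were at 0, among them Col1a2, Lum, Thy1, Postn and Dpt, and Dcn had 1 UMI. The endothelial genes Pecam1, Cldn5, Emcn and Vwf were also at 0. The cells are therefore called ranked Pdgfrb-positive cells below.

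Other genes of these lists were higher than in Pdgfrb-negative cells by edgeR's quasi-likelihood test on UMIs summed per library and class. A gene was called at a Benjamini-Hochberg adjusted p under 0.05 over all 12248 genes tested and a log2 fold change of at least 1 in either direction, and each ± after a log2 fold change is its standard error. Acta2, smooth muscle actin, was at 15.2 and 30.7 CPM in the ranked cells against 3.94 and 2.71 CPM, found in 20% against 5.48% of cells. Its log2 fold change was 2.62 ± 0.31 (edgeR adjusted p = 0.00011). The rise was uneven among the ranked cells. In replicate 1 only 10 cells held Acta2, and 1 of them reached 1204 CPM. Summed over ranks 1 to 20, 21 to 40 and 41 to 60, Acta2 was at 39.2, 3.30 and 5.46 CPM in replicate 1. In replicate 2 these levels were 62.6, 3.91 and 33.0 CPM. Notch3, a receptor of mural cells, and Anpep, a pericyte surface peptidase, rose as well, on 9 and 13 UMIs in the ranked cells (log2 fold changes 4.12 ± 0.86 and 4.24 ± 0.75). Of 14 pericyte genes 5 had enough counts to test and 2 rose, of 12 smooth muscle genes 5 were tested and 2 rose (Acta2 and Mylk), and of 18 fibroblast genes 6 were tested and 2 rose (Col1a1 and Fap). Of 12 endothelial genes 4 were tested and 1 rose (Ly6c1), and of 12 leptomeningeal genes 5 were tested and none rose. Of all genes tested 5.72% rose, but low genes such as Notch3, Anpep and Col1a1 entered the test because the ranked cells held them, so these counts are not read against that share. The summed level of the pericyte list was 11.0 to 14.2 CPM in the ranked cells and 5.93 to 7.05 CPM in Pdgfrb-negative cells, and that of the fibroblast list 70.4 to 82.8 against 45.1 to 48.1 CPM.

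**Figure D1:**
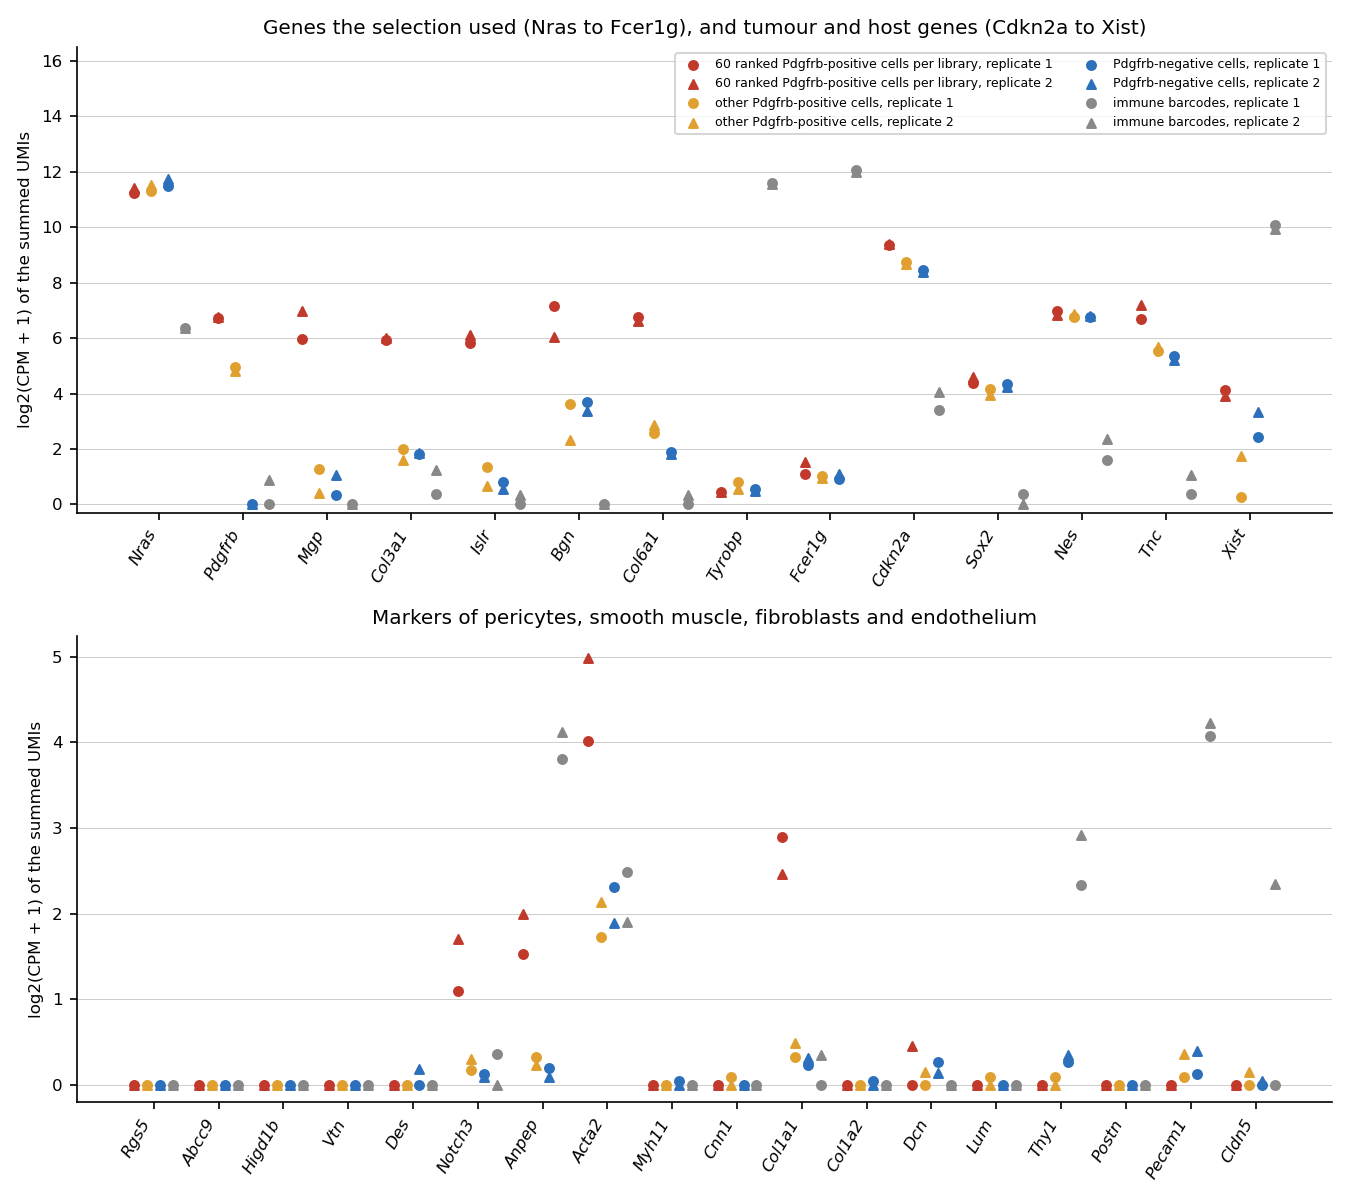
Levels of genes in 4 classes of cells, as log2(CPM + 1) of UMIs summed per library, with circles for replicate 1 and triangles for replicate 2. The upper panel holds the genes used for selection and, from Cdkn2a on, tumour and host genes, and the lower panel shows pericyte, smooth muscle, fibroblast and endothelial markers, of which Rgs5, Abcc9, Higd1b, Vtn, Myh11, Cnn1, Col1a2 and Pecam1 lie at 0 in the ranked cells.

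The question of tumour or host origin was approached with genes whose levels separated Nras-high cells from immune barcodes in the same libraries. Xist, the RNA made from the inactive X chromosome (ENSMUSG00000086503, chromosome X, 103460366 to 103483254, minus strand), was at 1087 and 988 CPM in immune barcodes. It had a UMI in 69.8% of them (554 of 794; exact 95% interval 66.4% to 73.0%), although their median depth was the lowest of the classes. Among ranked cells Xist had a UMI in 3 of 120, or 2.5% (0.519% to 7.13%). In Pdgfrb-negative cells the share was 1.99% (25 of 1258; 1.29% to 2.92%) and in other Pdgfrb-positive cells 1.12% (6 of 534; 0.413% to 2.43%). With every cell thinned to 5000 UMIs the shares were 1.67%, 0.954% and 0.375% in these 3 classes and 82.2% in immune barcodes. The interval of the ranked cells overlaps those of both Nras-high classes and lies far from that of the immune barcodes. All 3 Nras-high classes were chosen by at least 1000 CPM of Nras and the immune barcodes by less. The selection itself can therefore set this likeness. The intervals pool the cells of both libraries and count cells, not animals. The Y-linked genes Ddx3y, Eif2s3y, Kdm5d and Uty had 0 UMIs in every class.

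The 3 ranked cells with Xist all lay among the first 20 of their library. One, at rank 2 of replicate 2, had 37 Xist UMIs (908 CPM, near the summed level of immune barcodes), 0 UMIs of Cdkn2a, 94 of Nras (2306 CPM), 57 of Mgp and 62 of Col3a1. It was the only ranked cell without a Cdkn2a UMI. A cell at rank 20 of replicate 1 had 35 Xist and 8 Cdkn2a UMIs, and the third, at rank 13 of replicate 1 and the deepest ranked cell with 187729 UMIs, had 9 and 94. These 3 cells held all 81 Xist UMIs of the class, so its level of 16.7 and 13.9 CPM was set by them. In Pdgfrb-negative cells the level was 4.45 and 9.10 CPM, and few cells set it there too. Without cells holding more than 5 Xist UMIs it was 0.298 and 0.142 CPM. One Pdgfrb-negative cell of replicate 1 had 1018 CPM of Xist, 2673 CPM of Nras and 0 of Cdkn2a, so such cells were not particular to the ranked class. Xist did not pass the test against Pdgfrb-negative cells (log2 fold change 1.07 ± 0.37, edgeR adjusted p = 0.053) and passed it against other Pdgfrb-positive cells (3.50 ± 0.51, edgeR adjusted p = 0.00066).

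Cdkn2a, the p16 and p19ARF tumour suppressor locus that can be strongly transcribed in RAS-driven cells, was low in immune barcodes and high in every Nras-high class. It was at 656 and 676 CPM in ranked cells, 423 and 404 in other Pdgfrb-positive cells, 349 and 336 in Pdgfrb-negative cells, and 9.50 and 15.6 in immune barcodes. All 60 ranked cells of replicate 1 and 59 of 60 in replicate 2 held a UMI, with medians of 676 and 693 CPM per cell. The log2 fold change over Pdgfrb-negative cells was 0.83 ± 0.05 (edgeR adjusted p = 5.1e-07), under the size needed for a call. Trp53 was at 11.4 and 12.7 CPM, near the 13.0 and 12.1 CPM of Pdgfrb-negative cells, and at 58.8 and 56.9 CPM in immune barcodes.

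Of 14 glioma genes 8 could be tested and 1 rose, beside 5.72% of all genes. It was Tnc, a matrix glycoprotein of glioma and of developing stroma, at 103 and 145 CPM against 40.4 and 35.9 CPM (log2 fold change 1.56 ± 0.13, edgeR adjusted p = 8.8e-06). The neural progenitor genes Sox2 (19.7 and 23.2 against 19.3 and 17.9 CPM) and Nes (125 and 113 against 108 and 109 CPM) had log2 fold changes of 0.08 ± 0.15 and -0.00 ± 0.07, and in immune barcodes neither exceeded 4.10 CPM. Olig1, Fabp7, Bcan and Ncan had no UMI in ranked cells. C1qa, a complement gene of microglia and macrophages, was at 1.51 and 2.62 CPM against 1.45 and 2.12 CPM in Pdgfrb-negative cells and 9778 and 10120.5 CPM in immune barcodes. Of 7 immune genes tested 1 rose, beside the same 5.72% of all genes. It was Cd74, the MHC class II invariant chain (73.9 and 68.9 against 17.8 and 11.4 CPM), found in 25% of ranked cells.

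Outside the Nras gate, 63 Pdgfrb-positive cells had Nras between 0 and 1000 CPM, and 2 of these had no Nras UMI. Both held Xist (10 UMIs, or 854 CPM, and 18 UMIs, or 883 CPM) and no Cdkn2a UMI. They were the only 2 of the 63 cells with a Xist UMI. The one in replicate 2 scored 51.4 on the 5 ranking genes, above every ranked cell. It held 230 UMIs of Mgp, 32 of Col1a1, 32 of Col1a2 and 76 of Dcn, so the libraries did yield RNA of Col1a2 and Dcn where it was present. The 120 ranked cells together held 29 Col1a1 UMIs, 0 of Col1a2 and 1 of Dcn.

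**Figure D2:**
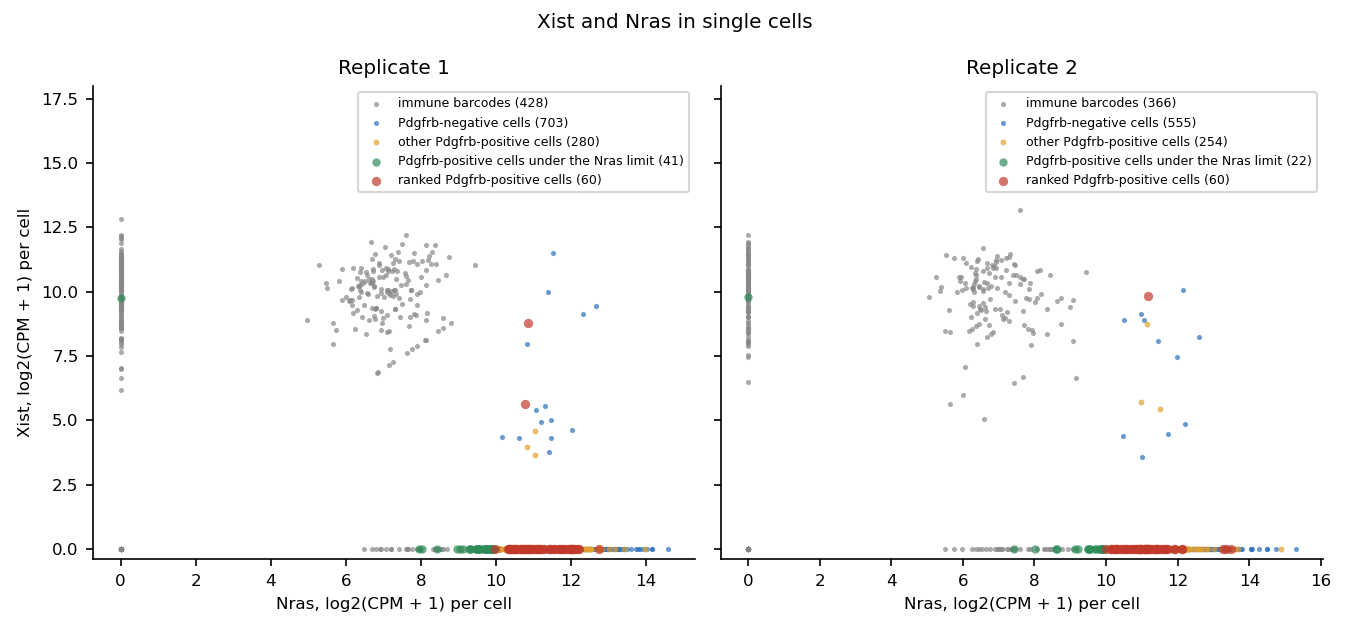
Xist against Nras per cell, each as log2(CPM + 1), in replicates 1 and 2, with the number of cells of each class in the legend. Immune barcodes with Xist lie at the upper left, the ranked cells lie along 0 Xist except for 2 cells in replicate 1 and 1 in replicate 2, and 1 Pdgfrb-positive cell of each library lies at 0 Nras with Xist.

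Against Pdgfrb-negative cells the ranked cells differed by a broad set of secreted and matrix genes. With the 9 genes of the selection left out, 701 genes were higher (5.72% of 12248) and 218 were lower (1.78%). Because cells were ranked on matrix genes, genes that vary with these from cell to cell were bound to be drawn along. With library as a block, the p-values rest on how far the differences between classes varied between the 2 libraries. The fit also drew each gene's variance toward that of the other genes, so a p-value does not rest on the gene's own variation alone. The most widespread of the 15 largest rises was Igfbp7, a secreted protein that binds insulin-like growth factors and is abundant around vessels. It was at 344 and 383 CPM in ranked cells against 35.1 and 31.9 CPM, in 95.8% against 40.4% of cells, and rose by a log2 fold change of 3.30 ± 0.07 (edgeR adjusted p = 1.3e-09). Lmcd1, a LIM-domain regulator of transcription in muscle and heart, was at 100 and 121 CPM against 2.88 and 5.63 CPM, in 76.7% against 8.82% of cells, with a log2 fold change of 4.60 ± 0.25 (edgeR adjusted p = 4.8e-07). Cp, the copper-carrying ferroxidase ceruloplasmin, was at 99.2 and 145 CPM against 6.82 and 7.09 CPM and was found in 84.2% of ranked cells (log2 fold change 3.98 ± 0.12). For all 3 genes the lower library of the ranked cells lay far above the higher library of the Pdgfrb-negative cells.

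Other large rises came from fewer cells. Ptn, the growth factor pleiotrophin, was at 56.1 and 50.9 CPM against 0.445 and 0.452 CPM in 27.5% of ranked cells (log2 fold change 6.75 ± 0.20). Lbp, the lipopolysaccharide-binding protein, was at 33.3 and 21.3 CPM against 0.0889 and 0.243 CPM in 25.8% of cells (7.21 ± 0.39). H19, an imprinted non-coding RNA, was at 142 and 175 CPM against 4.27 and 2.47 CPM in 32.5% of cells (5.41 ± 0.21), and single cells reached 3046 and 3926 CPM. These 3 genes had no UMI in most ranked cells. Enpp2, the enzyme autotaxin, Tmem119, Pdgfrl, Nrp1 (a co-receptor for VEGF and semaphorins), Nrep and Fcgrt also rose, by 3.37 to 5.88 on the log2 scale, and were found in 41.7% to 62.5% of ranked cells. Tmem119 is known as a microglial marker and as an osteoblast gene; it was at 28.0 and 28.1 CPM in ranked cells and 326 and 322 CPM in immune barcodes; the levels of C1qa in the ranked and Pdgfrb-negative cells are given above. For the protease Mmp3 a single cell held 83.8% of the UMIs, and for Mmp13, found in 18 ranked cells, 1 cell held 45.2%.

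**Figure D3:**
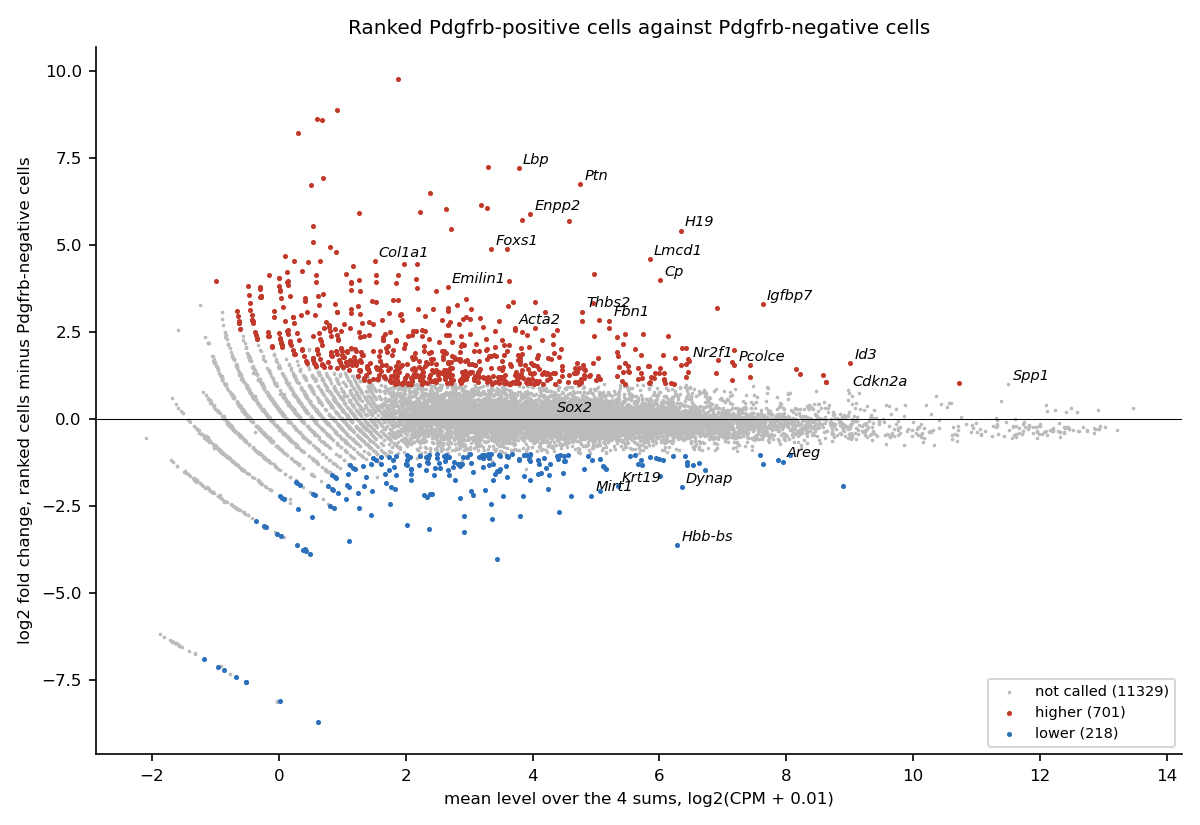
Log2 fold change of the ranked cells over Pdgfrb-negative cells (y axis) against the mean level of the 4 sums as log2(CPM + 0.01) (x axis) for 12248 genes. The 701 genes called higher are red and the 218 called lower are blue; Igfbp7, Lmcd1, Cp and Ptn stand out among higher genes of good level, and Sox2 and Cdkn2a are not called.

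The retinoid receptor gene Stra6, at 54.9 and 64.4 CPM against 3.11 and 2.92 CPM (log2 fold change 4.16 ± 0.14), lies beside Islr, a gene of the ranking, on chromosome 9 (58063788 to 58153996 and 58156268 to 58204306, GENCODE M21, GRCm38). In the same way Col6a2, the partner chain of Col6a1 in collagen VI, lies beside it on chromosome 10 (76595762 to 76623630 and 76708792 to 76726168). Col6a2 was at 25.8 and 13.5 CPM against 0.0889 and 0.139 CPM (log2 fold change 7.24 ± 0.39, edgeR adjusted p = 4.4e-07).

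Windows of 250 bases before to 50 bases after the start, taken from RefSeq (GRCm38.p6), are shown for 4 genes of opposite behaviour: Igfbp7 and Lmcd1, found in most ranked cells, Col6a2, found in 36.7%, and Col1a2, found in none. CG dinucleotides, the sites of DNA methylation, are in capitals, because mutant IDH1 is known to raise DNA methylation; methylation was not measured here. They read 5′ to 3′ on the strand of the gene, at chr5:77407996-77408295 (minus), chr6:112273508-112273807 (plus), chr10:76623355-76623654 (minus, the first of 2 listed) and chr6:4505368-4505667 (plus).
Igfbp7: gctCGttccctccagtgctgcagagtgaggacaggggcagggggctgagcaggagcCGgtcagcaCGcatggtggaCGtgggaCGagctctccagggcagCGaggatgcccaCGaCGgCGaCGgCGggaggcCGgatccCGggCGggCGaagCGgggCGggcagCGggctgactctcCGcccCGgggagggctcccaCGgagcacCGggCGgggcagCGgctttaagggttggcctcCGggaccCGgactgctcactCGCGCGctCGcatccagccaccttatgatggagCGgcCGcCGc
Lmcd1: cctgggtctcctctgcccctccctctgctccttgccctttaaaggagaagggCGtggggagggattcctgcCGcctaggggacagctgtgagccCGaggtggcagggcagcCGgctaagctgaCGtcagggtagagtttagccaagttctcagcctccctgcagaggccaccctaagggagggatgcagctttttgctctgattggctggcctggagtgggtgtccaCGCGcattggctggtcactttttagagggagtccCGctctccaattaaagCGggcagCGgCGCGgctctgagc
Col6a2: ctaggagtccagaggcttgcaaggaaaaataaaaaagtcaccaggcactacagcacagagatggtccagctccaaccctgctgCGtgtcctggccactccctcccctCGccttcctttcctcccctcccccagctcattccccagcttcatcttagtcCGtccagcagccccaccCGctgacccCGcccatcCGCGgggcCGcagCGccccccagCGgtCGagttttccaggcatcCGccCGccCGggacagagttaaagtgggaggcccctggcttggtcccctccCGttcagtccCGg
Col1a2: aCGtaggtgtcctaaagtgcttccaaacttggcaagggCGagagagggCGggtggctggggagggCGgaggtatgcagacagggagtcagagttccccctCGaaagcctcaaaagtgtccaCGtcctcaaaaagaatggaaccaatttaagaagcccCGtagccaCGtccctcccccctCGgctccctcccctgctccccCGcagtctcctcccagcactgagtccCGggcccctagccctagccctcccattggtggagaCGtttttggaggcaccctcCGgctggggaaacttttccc
They hold 33, 12, 16 and 13 CG dinucleotides. At least as many are found in 8.56%, 39.6%, 33.0% and 37.9% of the 32851 windows in the table, whose median is 7. The gene found in no ranked cell thus has about as many as 2 of the genes found.

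Collagens other than those of the ranking were higher in many cases. Of 19 collagen genes besides those of the ranking 13 could be tested, and 10 rose and none fell, beside 5.72% and 1.78% of all genes. Their median log2 fold change was 2.42, and that of all genes -0.01. The ranking itself used the collagens Col3a1 and Col6a1, so the count and the median are descriptions and not a test of the list. Genes at low level entered the test only where 1 class held them, so the untested genes are part of the picture: Col1a2, Col11a1 and Col14a1 had no UMI. Col1a1, one of the chains of collagen I, was at 6.44 and 4.49 CPM against 0.178 and 0.243 CPM, found in 18 of 120 cells (log2 fold change 4.53 ± 0.51, edgeR adjusted p = 7.3e-05), without its partner Col1a2. Col5a2 and Col5a3 rose as well, from 15 and 29 UMIs, 80% of the former from 1 cell. Among genes picked after their values were seen, the fibril-nucleating Col5a1 was more widespread, at 33.7 and 34.5 CPM against 5.37 and 6.29 CPM in 69.2% of cells (log2 fold change 2.42 ± 0.14). The basement membrane genes Col4a1 (46.6 and 58.8 against 29.6 and 27.4 CPM) and Col18a1 (172 and 190 against 96.7 and 97.7 CPM) were below the size needed for a call.

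Elastic fibre and other matrix glycoproteins followed. Of 34 listed genes 28 were tested, 13 rose and none fell, beside 5.72% and 1.78% of all genes, with a median log2 fold change of 1.03. The ranking itself used matrix genes, and low genes such as Lama4 and Eln could enter the test through the ranked cells. The count is therefore a description and not a test of the list. Lama4, a laminin chain of vessel basement membranes, was at 13.6 and 12 CPM against 0.208 and 0.313 CPM (log2 fold change 5.47 ± 0.36), and Emilin1, an elastic fibre glycoprotein, at 13.6 and 10.1 against 0.830 and 0.730 CPM (3.78 ± 0.30). Eln, elastin, rose on 17 UMIs, and Mfap2 on 49 UMIs of which 1 cell held 61.2%. Among genes picked after their values were seen, fibrillin-1, Fbn1, was at 64.0 and 66.7 CPM against 7.86 and 8.96 CPM in 80.8% of ranked cells, thrombospondin-2, Thbs2, at 52.3 and 46.8 against 5.51 and 5.14 CPM in 72.5%, and Sparc at 355 and 496 against 147 and 139 CPM. Their log2 fold changes were 2.82 ± 0.12, 3.08 ± 0.12 and 1.44 ± 0.11. Fn1, fibronectin, at 608 and 716 against 355 and 364 CPM, was not called (0.75 ± 0.05), and Postn, Efemp1, Mfap5, Lama1 and Lama2 had no UMI. None of 9 small leucine-rich proteoglycans other than Bgn, such as Dcn and Lum, reached the counts needed for a test.

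Enzymes that process collagen were a further list. Of 23 genes 20 were tested, 3 rose and 1 fell, beside 5.72% and 1.78% of all genes: Pcolce, which enhances removal of the collagen propeptide, was at 203 and 240 CPM against 68.8 and 68.7 CPM and found in 97.5% of ranked cells (log2 fold change 1.55 ± 0.07, edgeR adjusted p = 1.4e-07). The crosslinking enzyme Loxl3 rose by 2.52 ± 0.24 and the lysyl hydroxylase Plod1 by 1.11 ± 0.20, while Loxl4 fell on 2 UMIs in ranked cells. The median of the list was 0.51.

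Among ligands, the TGF-beta family was represented by Tgfb2 (8.71 and 8.24 against 0.415 and 0.730 CPM, log2 fold change 3.76 ± 0.42) and Tgfb3 (20.1 and 21 against 4.74 and 3.86 CPM, 2.12 ± 0.19), whereas Tgfb1 was not called. Of 20 genes of TGF-beta signals and targets 6 rose and none fell, beside 5.72% and 1.78% of all genes, with a median of 0.44. The target Id3, a helix-loop-helix inhibitor, was at 686 and 906 CPM against 243 and 230 CPM (log2 fold change 1.62 ± 0.10), and the matricellular gene Ctgf at 8.33 and 16.1 against 3.17 and 3.68 CPM (1.71 ± 0.34). Of 5 PDGF genes tested apart from Pdgfrb 2 rose and none fell, beside 5.72% and 1.78% of all genes. They were the ligand Pdgfc (20.8 and 22.5 against 5.57 and 6.85 CPM, 1.67 ± 0.16) and Pdgfrl, a receptor-like protein (18.6 and 28.5 against 0.652 and 0.799 CPM, 4.87 ± 0.32). Pdgfb, the main ligand of Pdgfrb, was at 4.17 and 16.1 against 12.5 and 11.5 CPM and was not called.

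Of 27 mesenchymal transcription factors tested, out of 35, 9 rose and none fell, beside 5.72% and 1.78% of all genes, with a median log2 fold change of 0.45. Here too low genes such as Foxs1 could enter the test through the ranked cells, so the count is a description. Foxs1, a forkhead factor known from pericytes, was at 24.2 and 15.4 CPM against 0.741 and 0.452 CPM in 35% of cells (log2 fold change 4.88 ± 0.38, edgeR adjusted p = 5.4e-06). Meox1 (2.82 ± 0.33), Mef2c (2.61 ± 0.16) and the epithelial-mesenchymal factor Snai1 (2.02 ± 0.13) rose as well. Among factors picked after their values were seen, Nr2f1 was at 127 and 148 against 39.7 and 38.9 CPM in 95% of cells, Scx, a tendon factor, at 87.9 and 124 against 27.9 and 25.9 CPM, and Prrx2 at 60.2 and 69.3 against 16.8 and 14.4 CPM. Runx1 (167 and 155 against 99.5 and 105 CPM) and Tbx18, known in mural cells (log2 fold change 0.65), were not called, and Tcf21, Meox2 and Msx2 had no UMI.

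Of insulin-like growth factor genes, 9 of 11 were tested, 4 rose and none fell, beside 5.72% and 1.78% of all genes. The 4 were Igfbp7 and H19 (above), and at low level Igf1 (8 UMIs) and Igfbp6 (25 UMIs). Low genes such as Igf1 could enter the test through the ranked cells. Igfbp4, the most abundant of the list, was at 1818 and 1859 against 1687 and 1571 CPM and was not called (0.04 ± 0.04). Igf2, which neighbours H19 on chromosome 7 and is imprinted with it, had 1 UMI in each library of ranked cells.

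Fewer genes were lower, and the largest falls included haemoglobin genes, which belong to red cells. Hbb-bs, an adult haemoglobin chain, was at 15.2 and 8.24 CPM in ranked cells against 262 and 26.2 CPM in Pdgfrb-negative cells. All 4 tested red cell genes fell, beside 1.78% of all genes, and the 2 libraries of Pdgfrb-negative cells differed widely for Hbb-bs. None of the 4 was called against other Pdgfrb-positive cells, which had 11.0 and 7.53 CPM of Hbb-bs. Dynap, a membrane protein that activates AKT, was at 34.8 and 37.5 CPM against 136 and 119 CPM, in 33.3% against 82.3% of cells (log2 fold change -1.95 ± 0.09, edgeR adjusted p = 2.5e-07). Krt19, a keratin of epithelia, was at 24.6 and 11.6 against 66.3 and 59.8 CPM (-1.94 ± 0.17), and the non-coding RNA Mirt1 at 11.0 and 12.4 against 48.7 and 49.4 CPM (-2.20 ± 0.14). Sdcbp2, Plet1 and Wincr1 fell by 2.08 to 2.22 on the log2 scale. For these 6 genes both libraries of ranked cells lay below both of Pdgfrb-negative cells. Ccl5 also fell, on 43 UMIs, of which 38 were in replicate 1 (14.4 and 1.87 against 31.9 and 27.9 CPM).

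**Figure D4:**
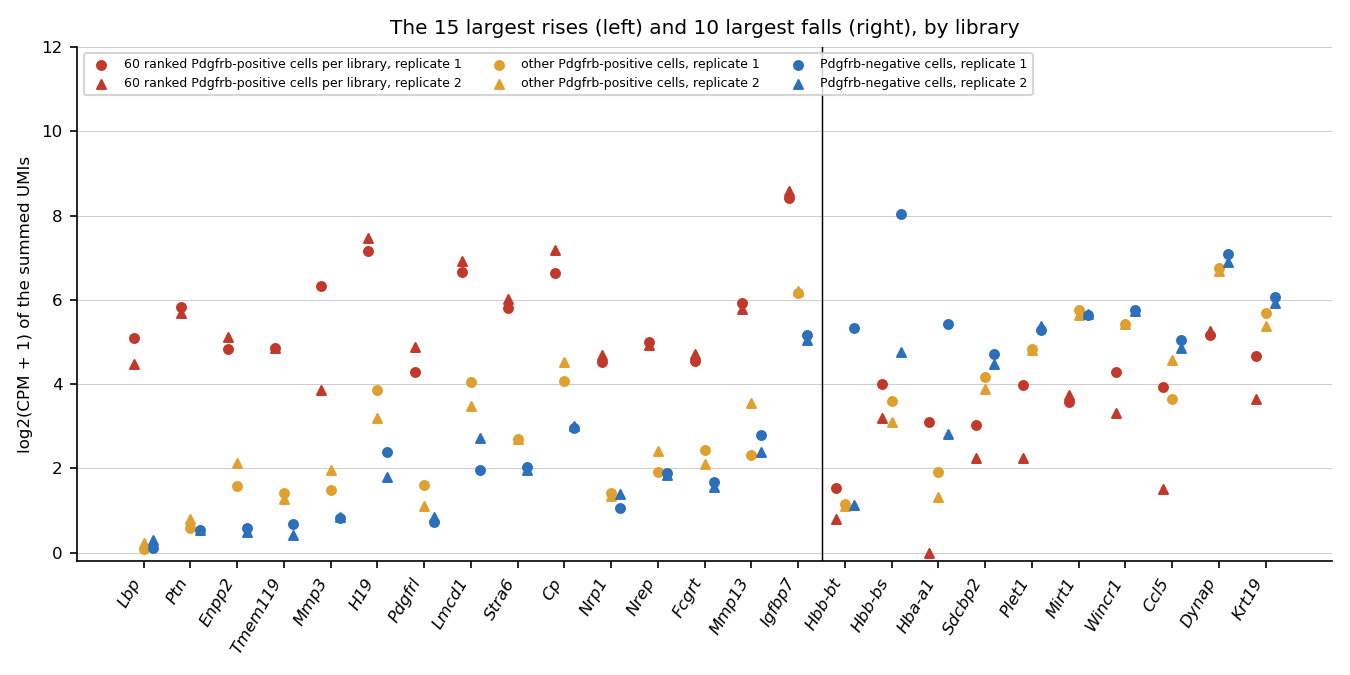
Levels of the 15 genes with the largest rise (left of the line) and the 10 with the largest fall (right) in 3 classes, as log2(CPM + 1) of summed UMIs, circles for replicate 1 and triangles for replicate 2. For the rises both red points lie above all others, other Pdgfrb-positive cells (yellow) lie mostly at or somewhat above Pdgfrb-negative cells (blue), and the red cell genes of the falls differ between the libraries of Pdgfrb-negative cells.

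Against the other Pdgfrb-positive cells, which share the receptor but scored lower, the ranked cells showed much of the same picture. There 531 genes were higher (4.34% of 12248) and 140 lower (1.14%). Both comparisons use the same sums of ranked cells, so the values are set side by side and not counted as separate evidence. Igfbp7, at 70.3 and 73.0 CPM in other Pdgfrb-positive cells, was higher in ranked cells by 2.27 ± 0.07 on the log2 scale, beside 3.30 ± 0.07 against Pdgfrb-negative cells. For Lmcd1 (15.7 and 10.1 CPM there) the values were 3.04 ± 0.23 and 4.60 ± 0.25, and for Cp (16 and 22 CPM) 2.61 ± 0.11 and 3.98 ± 0.12. For Ptn they were 6.30 ± 0.21 and 6.75 ± 0.20, since it was at 0.513 and 0.747 CPM in other Pdgfrb-positive cells. Of 13 collagens 10 were higher, of 28 matrix glycoproteins 11 and of 27 transcription factors 7.

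The other Pdgfrb-positive cells in turn differed little from Pdgfrb-negative cells: 13 genes were higher (0.106%) and 25 lower (0.204%) by the same edgeR test and thresholds. A Pdgfrb UMI alone, without a place among the first 60 scores, therefore went with few called differences. Their median depth was above that of both other classes, and the part of depth in whether a cell showed a Pdgfrb UMI was not tested.

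The ranked cells varied among themselves. Of the 15 genes with the largest rise a ranked cell held between 1 and 12 in replicate 1 (median 8) and between 1 and 13 in replicate 2 (median 7). In ranks 1 to 20 the medians were 10 and 8, and in ranks 41 to 60 they were 7 and 6.5. Levels by rank were taken from UMIs summed over blocks of 20 cells, so deep cells weigh more. Lmcd1 fell from 162 CPM at ranks 1 to 20 to 85.8 and 60.1 CPM over the next 2 blocks in replicate 1. In replicate 2 it fell from 205 to 93.0 and 75.4 CPM. Igfbp7 was at 363, 299 and 370 CPM and at 559, 297 and 320 CPM, with no steady order. Of the 15 genes, 9 were higher in the first than in the last block in both libraries, and 1 fell over all 3 blocks in both. The named rises were thus not limited to the cells that scored highest.

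**Figure D5:**
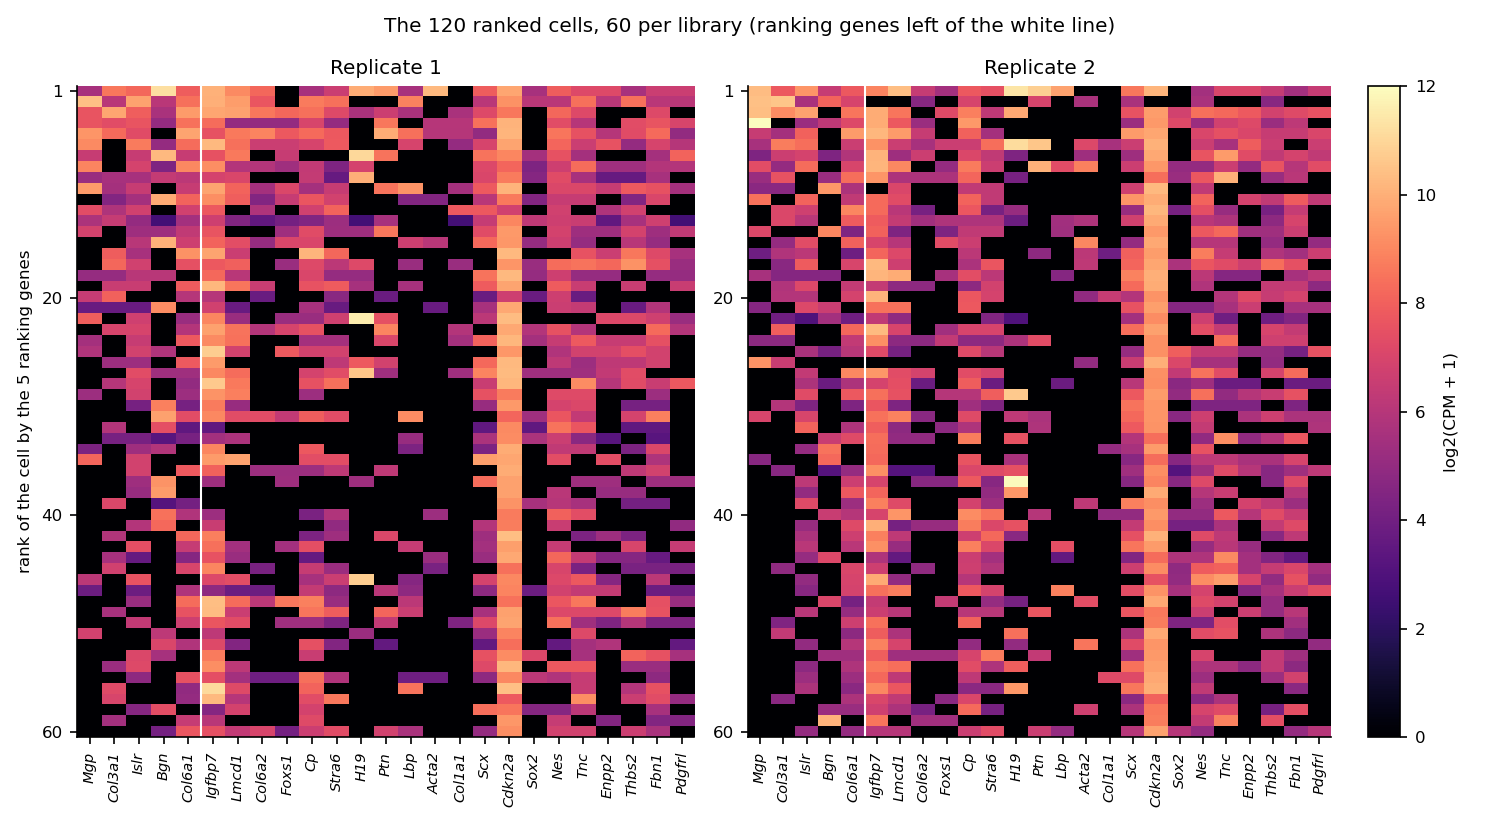
Level of 25 genes, as log2(CPM + 1), in each of the 120 ranked cells, 1 row per cell ordered by score, in replicates 1 and 2. Cdkn2a and Igfbp7 are bright in nearly every row, including the lowest ranks, while Mgp, Ptn, Lbp and Acta2 are dark in most rows.

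Placed among all cells of the gate by expression without the selection genes (2000 variable genes, 15 nearest neighbours), the ranked cells lay partly together. On average 38.6% and 37.8% of their neighbours were ranked cells, which made up 5.75% and 6.90% of the gate. For ranks 1 to 20 the share was 57% and 54.7%, and for ranks 41 to 60 it was 27.3% and 28.3%. In Pdgfrb-negative cells 1.45% and 1.72% of neighbours were ranked cells. Cells near the lower limit of the ranking thus sat less often among other ranked cells, and 7 and 4 ranked cells had none of them as a neighbour.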

How the data were processed

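The authors deposited unnormalised UMI counts per gene and barcode for 2 libraries, made with Cell Ranger 3.1 on mm10, per the submitters' processing notes; the gene annotation is not given in the sources used here. The members and gene lists were chosen with earlier results of these data known. Counts were summed per library and class (6 sums, 2 residual degrees of freedom) and fitted with edgeR 4.0.16 in R 4.3.3 (quasi-likelihood, TMM, filterByExpr, library as a block, since the 3 classes of a library are cells of the same sample). The 9 selection genes stayed in library sizes and were not tested. Total counts were 2640268 and 2669993 UMIs for the ranked cells, so intervals and limits cover counting error only. Doublets were scored with Scrublet in scanpy 1.11.5 (expected rate 0.04) and kept, and left out as an alternative. The model was tested on simulated data. Of 31053 gene IDs, 31011 were found in GENCODE M21 (GRCm38).

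Named genes are called genes with the same direction in both libraries and at least 20 CPM in the higher class, the 15 largest rises and 10 largest falls; from each list up to 4 called genes and up to 2 not called; and the selection genes. Genes with symbols of the Gm or Rik kind were left out. Alternatives were DESeq2 1.42.0, other size factors, no low-count filter, no block, 2 classes only, 30 or 100 cells per library, stricter limits on Pdgfrb, Nras, depth or mitochondrial share, thinning to 5000 UMIs, each library left out, and, added after the data were seen, no Xist-positive ranked cells.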

Additional observations from a re-analysis of the deposited data

How the results depend on the processing

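Of 68 named genes called against Pdgfrb-negative cells, 52 kept the call under every alternative they were tested in. The 701 higher genes became 457 with Nras of at least 2000 CPM (405 shared) and 317 with cells thinned to 5000 UMIs (220 shared), and the 218 lower genes 103 with 100 cells per library and 112 with the Nras limit; thinning gave 176 lower genes, of which 66 were among the 218. Against other Pdgfrb-positive cells the 531 higher genes became 162 after thinning, and the 140 lower genes 52 with 100 cells, 52 with the Nras limit and 91 after thinning (23 shared); the cause was not tested. Without the library block the counts were 713 and 233 against Pdgfrb-negative cells and 557 and 153 against other Pdgfrb-positive cells, and Hba-a1, Hba-a2 and Hbb-bt lost their calls. DESeq2 gave 563 and 147, then 413 and 94, and Adm, Ccl5, Hba-a1, Hbb-bt, Igfbp6 and Loxl4 lost their calls with it. The Xist level of the ranked cells (15.3 CPM) was 32.8 CPM with 30 cells per library, 10.8 with 100, 10.6 with the Nras limit and 11.7 after thinning, and 13.9 to 16.7 CPM with 1 library left out. Without the 3 Xist-positive cells 683 genes were higher and 249 lower, with 645 of the 701 shared, and the log2 fold change of Xist was -9.904 by construction.

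Beside Xist, these genes changed sign, all of them not called in the reported fit: C1qa (-0.037, at least 20000 UMIs), Egfl7 (0.021 with 2 Pdgfrb UMIs, 0.11 with the Nras limit), Fbln1 (-0.14, 2 Pdgfrb UMIs), Flt1 (-0.034 and -0.19, the same 2 limits), Ier3 (-0.11 with 30 cells and with 2 Pdgfrb UMIs, -0.035 with 20000 UMIs, -0.091 after thinning), Igf1r (-0.020, thinning), Mcam (0.12 with the Nras limit, 0.40 after thinning, 0.062 without Xist-positive cells), Pdgfb (0.089 with 2 Pdgfrb UMIs, 0.16 with the Nras limit, 0.024 after thinning) and Sox5 (-0.22 with the Nras limit, -0.26 without Xist-positive cells). Calls were also lost for Jag1 and Isg15 with 100 cells, 2 Pdgfrb UMIs or the Nras limit, Loxl4 with these and 30 cells, Plod1 and Rrm2 with 100 cells or the Nras limit, Areg with 100 cells, Irf7 with the Nras limit, Ccl5 and Mylk with 30 cells, Hbb-bt after thinning, and Igfbp6 and Matn2 without Xist-positive cells. Low-count genes are limited by depth: a count of 0 in the ranked cells allows up to 1.14 CPM.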

Other observations

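Interferon-stimulated genes were higher in the ranked cells. All 15 tested genes of MHC class I and interferon response had a positive log2 fold change against Pdgfrb-negative cells with an edgeR adjusted p under 0.05, as had 14.4% of all genes tested. Of these 3 passed the size threshold, beside 5.72% of all genes, and the list median was 0.74. Irf7, the interferon-induced transcription factor, was at 112 and 146 CPM against 44.5 and 48.3 CPM (log2 fold change 1.34 ± 0.09), and the ubiquitin-like Isg15 at 473 and 633 against 237 and 244 CPM (1.06 ± 0.07). B2m, the light chain of MHC class I, was at 1653 and 1803 against 1228 and 1239 CPM and was not called. Among 12 tested cytokine genes 3 rose and 1 fell, beside 5.72% and 1.78% of all genes. The monocyte chemokine Ccl2 was at 172 and 264 CPM against 24.3 and 19.8 CPM, in 53.3% against 15.3% of cells (3.19 ± 0.27). Areg, the EGF receptor ligand amphiregulin, was at 166 and 149 against 332 and 338 CPM (-1.22 ± 0.06).

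Cell cycle genes were lower by less than the size threshold. Of 20 tested, 18 had a negative log2 fold change with an edgeR adjusted p under 0.05, as had 14.8% of all genes tested, 1 was called lower, beside 1.78% of all genes (Rrm2, 53.4 and 30.3 against 88.1 and 81.9 CPM, -1.16 ± 0.14), and the list median was -0.58. Mki67, the proliferation marker, was at 35.6 and 32.2 against 53.8 and 53.9 CPM, not called. Of 14 hypoxia and glycolysis genes 10 had a negative value with an edgeR adjusted p under 0.05, as had 14.8% of all genes tested. The glycolytic enzyme Pgk1 was among the 10 (614 and 599 against 921 and 907 CPM, -0.72 ± 0.04). The only call in that list was a rise, Adm, at 10.6 and 0 CPM against 0.830 and 0.0695 CPM; its 28 UMIs lay in 2 cells of replicate 1, and DESeq2 did not call it. Jag1, a Notch ligand, fell (45.4 and 41.9 against 84.5 and 95.3 CPM, -1.17 ± 0.12), the only call among 8 Notch genes, beside 1.78% of all genes called lower. The ranked cells had fewer UMIs per cell than Pdgfrb-negative cells, and the part of depth in these differences was not tested. Spp1, osteopontin, was at 4044 and 3911 against 1751 and 1889 CPM, with a log2 fold change of 0.997 ± 0.039 that fell short of the size threshold.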
